A study of Rattus norvegicus with 14 samples.

Results

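Neurotrophins are secreted growth factors, and the genes described here are those of 2 neurotrophins, their receptors and sorting receptors, and 1 further secreted peptide, in cultured rat hippocampal cells given allopregnanolone (Allo). The members were taken by symbol from a list of 8 genes, namely the ligand genes Bdnf and Ntf3, the receptor genes Ntrk2, Ntrk3 and Ngfr, the sorting receptor genes Sort1 and Sorl1, and Vgf. Of these 8, 7 were found among the 18239 genes listed for neurons and the 31791 listed for astrocytes, and Sorl1 was not analysed here. In neurons all 7 reached the minimum for testing, a mean of 10 normalized counts, as did 15314 genes in all, and in astrocytes 6 did, of 15380 genes. Ngfr was below that minimum in astrocytes.

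The study asked how Allo, a neurosteroid made from progesterone, changes gene expression in cells held in AM medium, a supplement-reduced medium used as an in vitro aging model. Primary hippocampal cells of embryonic day 18 Sprague Dawley rats were used, and the labels give no genetic change in any group. Neurons on day 10 in culture were kept for 4 h in AM medium, with less of the B27 supplement, and then received vehicle (AM-Veh, ethanol at 0.001%) or Allo at 100 nM (AM-Allo) for 16 h, with 4 libraries in each group. Astrocytes were kept for 24 h in AM medium with charcoal-stripped serum and then for 24 h with vehicle or 100 nM Allo, and each group had 3 libraries. AM medium was therefore shared by controls and treated cells, and no RNA-seq library of cells in full medium was analysed here. The labels do not say whether the libraries of a group came from separate cultures or animals, so p-values measure the spread between these libraries, which may be technical. Astrocytes had been enriched by shaking off loosely attached cells, and both kinds of culture hold more than 1 cell type.

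BDNF and NT3, the products of Bdnf and Ntf3, are made as precursors that proteases trim, and the mature proteins bind Trk receptor kinases, BDNF mainly TrkB (Ntrk2) and NT3 mainly TrkC (Ntrk3). The p75 receptor (Ngfr) binds all neurotrophins and, with sortilin (Sort1), their precursors, and sortilin also carries BDNF through the secretory pathway. In the hippocampus Bdnf transcription follows neuronal activity through several promoters, and Vgf, a granin-like peptide precursor of dense core vesicles, is itself a known BDNF-responsive gene.

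Promoter sequence is shown for the pair of genes whose level differed between AM-Allo and AM-Veh neurons, since both hold a motif of the cAMP response element type next to a transcript start. Sequences are from RefSeq on GRCr8, cover the 250 bases before a transcript's first base, and read 5′ to 3′ on the gene's strand. Vgf, on the minus strand, has 1 entry, chr12:25277021-25277270. Bdnf, on the plus strand, has 6 entries, and the 1 shown is chr3:116637608-116637857. Counts sum all transcripts of the gene, so they do not tell which Bdnf entry was used or was lower. Capitals mark the motifs TGACGTCA and CACGTG in Vgf and TCACGTCA in Bdnf.
Vgf: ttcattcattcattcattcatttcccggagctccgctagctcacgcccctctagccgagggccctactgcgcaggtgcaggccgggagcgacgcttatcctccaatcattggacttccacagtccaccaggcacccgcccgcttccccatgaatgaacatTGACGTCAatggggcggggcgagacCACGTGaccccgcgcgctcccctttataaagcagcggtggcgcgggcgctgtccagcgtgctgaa
Bdnf: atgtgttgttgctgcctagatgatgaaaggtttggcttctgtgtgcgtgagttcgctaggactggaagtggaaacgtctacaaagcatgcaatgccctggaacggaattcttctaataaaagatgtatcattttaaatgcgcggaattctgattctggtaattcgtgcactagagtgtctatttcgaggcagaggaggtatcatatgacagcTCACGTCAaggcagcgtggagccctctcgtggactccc
The first base of TGACGTCA stands at -90 in the Vgf sequence and that of CACGTG at -65, counted from the transcript's first base. In the Bdnf sequence, TCACGTCA begins at -38. On both strands, TGACGTCA is found in 1.59% of 33469 RefSeq rat promoters of the same length, TCACGTCA (reverse complement TGACGTGA) in 0.35% and CACGTG in 5.59%. The shorter motif TGACG, held by 18.2% of promoters, occurs in these sequences only inside the longer motifs. None of the other 5 Bdnf entries, the 3 Ntf3 entries or the 1 Sort1 entry holds any of these motifs. A match is a description of the letters and no evidence that a factor binds there. Only a fixed list of motifs was searched, and the pair was picked by its results and shown for its matches. The shares are per promoter entry, while Bdnf had 6 entries, so they are no test of these matches. Ntrk2, Ntrk3 and Ngfr had no entry.

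Values are normalized counts, that is, estimated reads per gene divided by each library's normalization factor, and differences are log2(normalized count + 1) in AM-Allo minus AM-Veh. The smallest step in each library's values gave an estimated depth of 19700000 to 25000000 reads on genes for neurons and of 22200000 to 28400000 for astrocytes, so that 1 read was worth 0.846 to 1.13 normalized counts. A normalized count is thus close to 1 read, and low members such as Ngfr stand on few reads. The markers fit the labels only in part. The neuron libraries held 10 of 10 neuron markers analysed above the minimum, but also 9 of 9 astrocyte markers, with Gfap at 94233 ± 22406 (SD, n = 4) in AM-Veh, and 8 of 8 oligodendrocyte lineage markers, while none of the 4 microglia markers analysed reached it. The astrocyte libraries held 9 of 9 astrocyte markers, with Gfap at 135934 ± 4332 (SD, n = 3), and 7 of 7 microglia markers. Of 7 mesenchymal and endothelial markers only 3 were tested, Col1a1 (AM-Veh mean 23505), Col1a2 (29769) and Pdgfrb (3944). Dcn, Lum and the endothelial markers Pecam1 and Cldn5 were not tested. The markers of this list summed to 53054 to 61564 normalized counts with vehicle and 57196 to 59126 with Allo. In the astrocyte libraries the neuron markers Rbfox3, Slc17a7, Slc17a6 and Gad2 were under the minimum, while Stmn2 (21790.3 ± 295) and Gad1 (1803 ± 83.4) were not. Values in these bulk libraries therefore average over cell types, and fewer cells of a type and less RNA per cell cannot be told apart.

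Among the ligands, Bdnf was lower in AM-Allo neurons. It stood at 325, 316, 385 and 299.95 normalized counts in AM-Veh libraries 1-1, 1-2, 2-1 and 2-2 and at 272, 241, 280.3 and 293 in the same-numbered libraries of AM-Allo. The highest AM-Allo value lay under the lowest AM-Veh value, although AM-Allo 2-2 and AM-Veh 2-2 were close. The means were 331 ± 36.9 and 271 ± 22.3 (SD, n = 4 each), a ratio of 0.819 and a log2 difference of -0.28 (SE 0.092, 95% interval -0.49 to -0.080). In limma's test across all genes the unadjusted p was 0.0110 and the Benjamini-Hochberg adjusted p 0.671. The two-sided exact permutation p was 0.0286, the smallest that 4 libraries against 4 can give. That permutation ignored the first part of the replicate numbers, which was taken to split the libraries into sets, so its p is not exact under such a split. When the replicate number's first part entered as a block, limma's adjusted p was 0.167. Bdnf therefore passed the test at an unadjusted p and not after adjustment over all genes. On the authors' variance-stabilized values, a scale compressed at such counts, the difference was -0.13, a size that is not comparable with -0.28.

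Ntf3, the gene of NT3, showed no difference between the groups beyond its spread. The AM-Veh libraries held 42.6, 30.5, 68.2 and 66.1 normalized counts, and the AM-Allo libraries 31.98, 39.5, 61.6 and 62.4. The groups overlapped, and in both the libraries numbered 2-1 and 2-2 were higher than those numbered 1-1 and 1-2. The log2 difference was -0.067 (limma, SE 0.30, 95% interval -0.73 to 0.59, p = 0.825, exact permutation p = 0.714).

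None of the 3 receptor genes passed limma's test between AM-Allo and AM-Veh neurons, either before or after adjustment. Ntrk2, the gene of TrkB, had 30349, 31543, 33583 and 35724 normalized counts with vehicle and 30932, 31157, 31442 and 34079 with Allo, and the groups overlapped. Its means were 32799.8 ± 2363 and 31903 ± 1466 (SD, n = 4 each), and the 95% interval of the log2 difference, -0.16 to 0.080, bounds the change in either direction (limma p = 0.488, exact permutation p = 0.6). The counts sum all transcripts of the gene, so full-length TrkB and the truncated form that astrocytes make cannot be told apart here, and the same holds for TrkC. Ntrk3, the gene of TrkC, had 722, 800.1, 844 and 833 normalized counts in AM-Veh and 822, 819, 753 and 762 in AM-Allo, with a log2 difference of -0.018 (95% interval -0.15 to 0.11, limma p = 0.767, exact permutation p = 0.8). Ngfr, the gene of p75, was near the minimum at 22.1, 17.3, 11.5 and 7.53 normalized counts in AM-Veh and 16.8, 20.03, 8.20 and 3.43 in AM-Allo. Its log2 difference of -0.39 has a 95% interval of -1.51 to 0.73 (limma p = 0.456, exact permutation p = 0.514). At this depth and spread that interval is wide and holds changes in either direction.

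Sort1, the gene of sortilin, was the steadiest of the members, with a coefficient of variation of 2.97% over the 8 neuron libraries. It had 3780.2, 3702, 3818 and 3735 normalized counts in AM-Veh and 3609.8, 3677, 3835 and 3971 in AM-Allo. The AM-Allo values lay on both sides of the AM-Veh values, with a log2 difference of 0.0047 (95% interval -0.073 to 0.083, limma p = 0.896, exact permutation p = 0.914).

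Vgf had the largest difference of the members. It stood at 1975, 1921, 2508 and 2457 normalized counts in AM-Veh libraries 1-1, 1-2, 2-1 and 2-2 and at 1009.9, 824, 1729 and 1369 in AM-Allo. The groups did not overlap, with AM-Allo 2-1 the highest treated and AM-Veh 1-2 the lowest control library. The means were 2215 ± 310.2 and 1233 ± 401 (SD, n = 4 each), a ratio of 0.557 and a log2 difference of -0.89 (SE 0.20, 95% interval -1.33 to -0.46). Limma gave p = 0.000979 and an adjusted p of 0.353, and the exact permutation p was again the smallest possible, 0.0286. With the block by first number the SE was 0.085 and limma's adjusted p 0.000133, and with a block by the whole number it was 0.000178. Among 15314 genes Vgf ranked 42nd by p and 4th by p with the block, where Bdnf ranked 252nd and 315th.

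**Figure D1:**
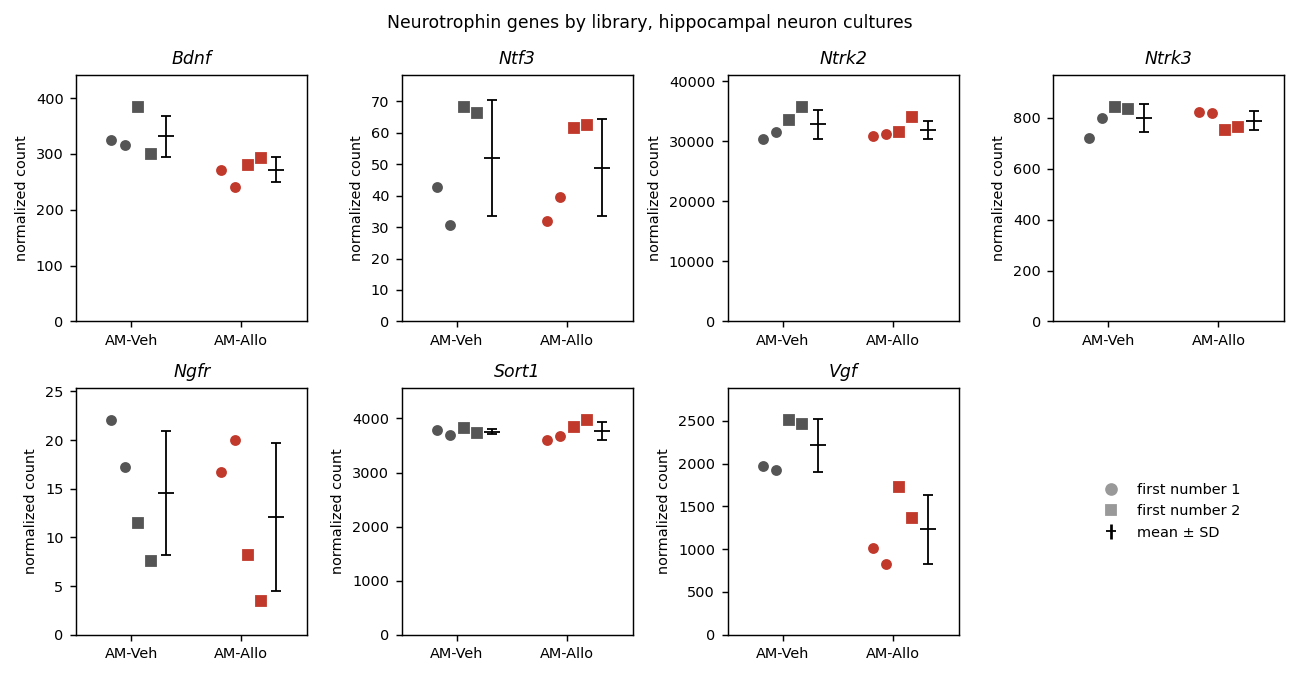
Normalized counts (y axis, linear from 0) of the 7 members in each neuron library, by group; circles are libraries of first number 1, squares those of first number 2, and bars give the mean and SD of 4 libraries. For Bdnf and Vgf the 4 AM-Allo points all lie under the 4 AM-Veh points, and Ntf3 and Ngfr split by first number.

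Of the 7 members tested in neurons, 2 had an unadjusted p under 0.05, both lower in AM-Allo, where 5.69% of all genes tested had one in either direction and 2.48% had one and were lower. The same 2 members were the ones with no overlap and lower values, as were 1.89% of all genes. None of the 7 passed an adjusted p of 0.05 by limma, as 0.0261% of all genes did, and with the block by first number 1 of 7, Vgf, did, where 0.679% of all genes did. At an unadjusted p the block gave the same count of 2 members, where 11.0% of all genes passed. In direction, 6 members were lower and 1 higher, with a median log2 difference of -0.067, while all genes had a median of -0.0015.

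The first part of the replicate number, whose meaning the labels do not give, split the members in another way. Libraries of first number 2 were compared with those of first number 1, with treatment as a covariate in limma. Ntf3 was higher, at 64.6 ± 3.14 normalized counts against 36.2 ± 5.83 (SD, n = 4 each, log2 difference 0.83, adjusted p = 0.00228), and Ngfr was lower, at 7.66 ± 3.31 against 19.03 ± 2.48 (log2 difference -1.30, adjusted p = 0.0127), both with no overlap. Such a separation was seen for 10.2% of genes in the higher and 9.47% in the lower direction. Vgf was also higher in first number 2 (0.55, adjusted p = 0.000315), as was Ntrk2 (0.12, adjusted p = 0.0121), while Bdnf (0.12, adjusted p = 0.347), Ntrk3 (0.014, adjusted p = 0.904) and Sort1 (0.057, adjusted p = 0.194) did not pass the adjusted threshold. In all, 4 of 7 members passed, where 17.2% of all genes did.

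Within each first number the difference of Bdnf and Vgf kept its direction. Bdnf went from a mean of 321 to 256 normalized counts in first number 1 and from 342 to 287 in first number 2. Vgf went from 1948 to 917 (log2 difference -1.09) and from 2482 to 1549 (-0.69), with no overlap between AM-Veh and AM-Allo in either. With 2 libraries a group, no exact test within a first number can pass 0.05. The difference between the 2 effects was tested by an interaction term, which at an unadjusted p was called for 9.53% of all genes. For Vgf the term was 0.40 (limma, SE 0.13, adjusted p = 0.328) and for Bdnf 0.081 (SE 0.16, adjusted p = 0.925). Ntrk3 was higher in AM-Allo in first number 1, from 761 to 820.3 normalized counts, and lower in first number 2, from 838.5 to 758, and its interaction term was -0.26 (limma, SE 0.087, adjusted p = 0.352). Sort1 also moved in opposite directions, by -0.038 and 0.047 on the log2 scale, but its interaction term of 0.086 did not pass at an unadjusted p (limma, adjusted p = 0.640), while those of Vgf and Ntrk3 did. After adjustment over all genes none of the 7 interaction terms passed.

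**Figure D2:**
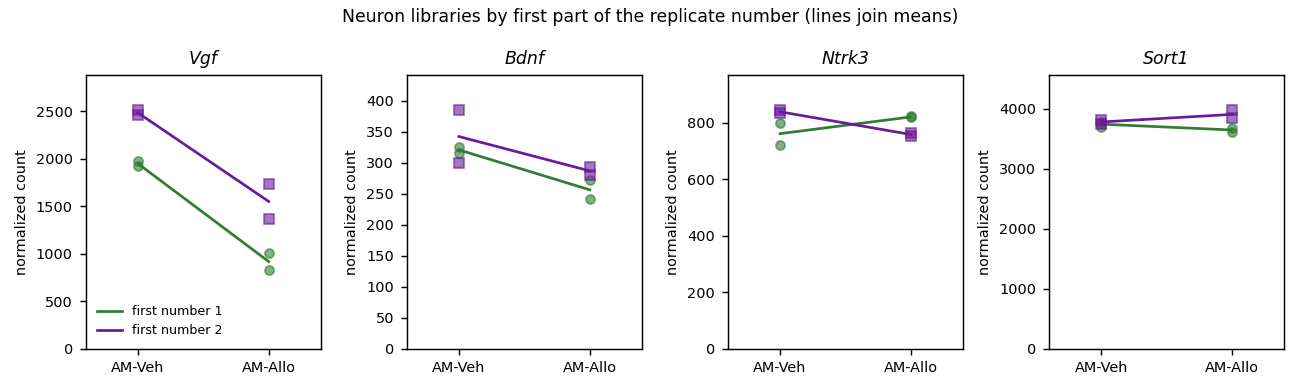
Normalized counts (y axis, linear from 0) of Vgf, Bdnf, Ntrk3 and Sort1 in AM-Veh and AM-Allo neurons, with libraries of first number 1 in green circles and of first number 2 in purple squares; lines join the means of 2 libraries. The Vgf lines fall from 1948 to 917 and from 2482 to 1549, and the Ntrk3 lines cross.

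The other genes of the pathway were taken from lists by role and are given as counts at an unadjusted p under 0.05 by limma, to be read against 5.69% of all genes in either direction and 2.48% lower, or 11.0% in either direction with the block by first number. Enzymes and inhibitors that shape neurotrophin precursors had 8 genes tested, of which 1 (12.5%) was lower in AM-Allo neurons and 2 were lower with the block. This was Plat, tissue plasminogen activator, which cuts plasminogen to the plasmin that can trim the BDNF precursor, at a mean of 2489.7 normalized counts with vehicle and 2259 with Allo (-0.14, adjusted p = 0.650) without overlap. Of 18 adaptors and signal proteins that bind Trk receptors, 1 (5.56%) was lower, the neuronal adaptor gene Shc3 (1092 to 970.3, log2 difference -0.17, adjusted p = 0.650), a share near that of all genes. Of the 18, 14 had values above 0 that did not pass, and with the block 1 was higher and 2 were lower. Of 12 partners of p75, 1 (8.33%) was higher, Lingo1 (0.11, adjusted p = 0.849), a co-receptor in its complex, and with the block 1 was higher and 1 lower. None of the 9 partners of sorting receptors passed in either fit, and neither did Sorcs1, Sorcs2 or Sorcs3. None of the genes in these lists passed after adjustment, with or without the block.

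Dense core vesicle cargo, the class to which Vgf belongs, had 13 genes tested, with 2 lower in AM-Allo neurons (15.4%, against 2.48% of all genes) and none higher. Sst, the gene of somatostatin, fell from 1847 to 1254 normalized counts (-0.59, limma adjusted p = 0.650, or 0.00452 with the block). Adcyap1, the gene of the peptide PACAP, fell from 387 to 282 (-0.48, limma adjusted p = 0.848, or 0.00729 with the block). With the block by first number 5 of the 13 were lower and 1 higher, where 11.0% of all genes passed in either direction, and 4 passed after adjustment, where 0.679% of all genes did.

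Activity-regulated genes, a class to which Bdnf and Vgf belong, were mostly lower in AM-Allo neurons. Of 22 tested, 18 were lower and 4 higher, with a median log2 difference of -0.16, and 6 passed, all lower (27.3%, against 2.48% of all genes). All lists here were drawn up with earlier results of these data known, so such a share is no independent support. The summed level of the 22 ranged from 9869 to 11284 normalized counts in AM-Veh and from 8036 to 9108 in AM-Allo, with no overlap. That sum includes Rgs4 and Dusp4, the 2 genes of the list that fell most in counts, and is no separate result. Rgs4, a regulator of G protein signalling, fell from 1524 to 859 (-0.83, limma adjusted p = 0.0235), and Dusp4, a phosphatase of MAP kinases, from 1115 to 699 (-0.68, adjusted p = 0.0235). These were the 2 genes of the list that passed after adjustment. Egr4, an immediate-early transcription factor gene, went from 29.2 to 14.2 (-1.11, limma adjusted p = 0.589). Egr1 (-0.42), Egr3 (-0.40) and Fosb (-0.91), named here after their values were seen like the genes that follow, also passed at an unadjusted p. With the block 10 of the 22 passed at an unadjusted p, all lower, where 11.0% of all genes passed in either direction. Fos (-0.30) and Npas4 (-0.76) passed with the block alone, and Arc (-0.20) and Junb (-0.097) in neither fit.

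**Figure D3:**
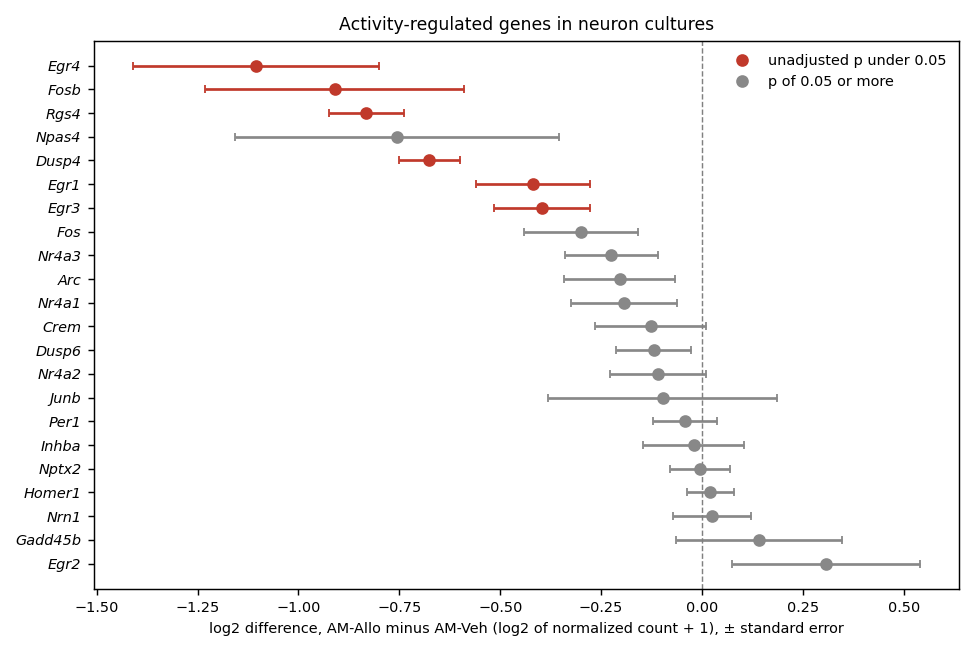
Log2 difference (x axis, AM-Allo minus AM-Veh, log2 of normalized count + 1) with its standard error for 22 activity-regulated genes in neurons, in order of size; red marks an unadjusted p under 0.05. Of the 22, 18 lie left of 0, and the 6 in red all do, from Egr4 at -1.11 to Egr3 at -0.40.

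Among 17 regulators of Bdnf transcription, 14 had values above 0, 2 passed higher and 1 passed lower, with and without the block (17.6%, against 5.69% of all genes without it and 11.0% with it). Hdac9, a class IIa histone deacetylase that binds MEF2 factors, fell from 608 to 444 normalized counts (-0.45, limma adjusted p = 0.195, or 0.00905 with the block) without overlap. Mef2c, a MEF2 factor gene, was higher, from 3835 to 4565 (0.25, limma adjusted p = 0.723, or 0.00729 with the block), as was Usf1 (0.094, adjusted p = 0.792), whose product binds E-boxes such as CACGTG.

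Markers of cell types moved beside these results. Of 10 neuron markers tested 4 passed, where 5.69% of all genes did. Higher in AM-Allo were Tubb3 (9014 to 10406, limma adjusted p = 0.539, or 0.0440 with the block), Slc17a7 (1969 to 2402.7, adjusted p = 0.589, or 0.0854 with the block) and Map2 (24729 to 26513, adjusted p = 0.677, or 0.104 with the block), and 1 was lower, Gad2 (1846 to 1387, -0.45, limma adjusted p = 0.799, or 0.0178 with the block). Gad1, the other gene of GABA synthesis, went from 1254 to 972 (-0.41, limma adjusted p = 0.880, or 0.0392 with the block). Of the 10 neuron markers, 5 were higher and 5 lower. Slc17a7 marks glutamatergic neurons, and Gad2 and Sst mark GABAergic neurons. Slc17a6, the other glutamatergic marker of the list, named here after its values were seen, was not higher (227 to 220, -0.052, limma adjusted p = 0.998). Gad1 is no clear marker of GABAergic neurons here, since AM-Veh astrocyte cultures held it at 1803 normalized counts with Gad2 under the minimum. The neuron markers summed to 53325 to 58704 normalized counts in AM-Veh and 55649 to 64305 in AM-Allo, and the astrocyte markers, of which 0 of 9 passed by limma and with the block 1 higher and 1 lower, to 199565 to 258956 and 198968 to 251362. The oligodendrocyte lineage markers summed to 38365 to 42775 and 38502 to 45308, with 0 of 8 passing by limma and 5 with the block, all higher. Mesenchymal and endothelial markers, without Pecam1 and Cldn5, summed to 622 to 1313 and 737 to 2119, with 0 of 5 passing, and microglia markers to at most 29.3. The part of these markers in the Bdnf and Vgf differences was not tested.

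Genes whose level followed each of the pair most closely over the 8 neuron libraries were found by the root mean square difference of log2 values, each gene centred on its own mean, among 15313 other genes. Closest to Bdnf were Zbtb16 (0.037), RGD1564053 (0.070), Sh3rf3 (0.071), Iqsec3 (0.078) and Per2 (0.081), where the median gene was at 0.217. Closest to Vgf were Sst (0.158), Ctrb1 (0.175), Stac (0.206), Gldn (0.209) and Arntl2 (0.214), where the median gene was at 0.558. Bdnf and Vgf themselves were 0.403 apart, with Bdnf the 195th gene nearest to Vgf and Vgf the 13849th nearest to Bdnf. Both were lower in AM-Allo, but the range of Vgf over the libraries was wider.

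In astrocytes none of the members passed the test between AM-Allo and AM-Veh. By limma 0 of 6 passed at an unadjusted p, where 7.01% of all genes did, and 0 passed after adjustment, where 0.00650% did. Bdnf was at 103, 83.3 and 109 normalized counts in AM-Veh libraries 1 to 3 and at 97.7, 115 and 96.8 in AM-Allo, with a log2 difference of 0.071 (95% interval -0.26 to 0.41, limma p = 0.655, exact permutation p = 0.8). The neuron difference of -0.28 lies just below that interval, but its own 95% interval of -0.49 to -0.080 overlaps the astrocyte one. The cell types were not tested against each other. Ntf3 was at 239, 217 and 207 in AM-Veh and 223, 233 and 193 in AM-Allo (-0.034, 95% interval -0.27 to 0.20, limma p = 0.756, exact permutation p = 0.8). For both ligands the groups overlapped throughout.

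Of the receptor genes in astrocytes, Ntrk2 had 30819, 29511 and 29088 normalized counts in AM-Veh and 27518, 28915 and 29212 in AM-Allo (-0.062, 95% interval -0.14 to 0.019, limma p = 0.120, exact permutation p = 0.2). Ntrk3 had 290.5, 303 and 299 in AM-Veh and 274, 369 and 355 in AM-Allo (0.15, 95% interval -0.085 to 0.38, limma p = 0.193, exact permutation p = 0.4). AM-Allo 1 was the lowest Ntrk3 library of all 6 and the other two AM-Allo libraries the highest, and without AM-Allo 1 the difference was 0.28 and passed at an unadjusted p (limma adjusted p = 0.388). Ngfr was at 5.29, 7.26 and 1.97 in AM-Veh and 1.07, 3.92 and 7.91 in AM-Allo, too few reads for a test. Sort1 was at 8236, 8257 and 8588 in AM-Veh and 8439.9, 8355 and 8797 in AM-Allo (0.029, 95% interval -0.046 to 0.10, limma p = 0.420, exact permutation p = 0.5).

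Vgf in astrocytes stood at 281, 318 and 308 normalized counts in AM-Veh and at 379, 312 and 340.1 in AM-Allo. The groups overlapped, with AM-Allo 2 inside the AM-Veh range, and the log2 difference was 0.18 (95% interval -0.020 to 0.38, limma p = 0.0739, adjusted p = 0.749, exact permutation p = 0.2). Without AM-Allo 2 it was 0.25 and passed at an unadjusted p (limma adjusted p = 0.632). The astrocyte interval lies above the neuron interval of -1.33 to -0.46, but times, media and tables differed and no test compared them. With 3 libraries against 3 no exact permutation p can go under 0.1, and those of the 6 members ran from 0.2 to 0.8. In direction, 4 members had values above 0 and 2 below, with a median of 0.050 beside 0.0014 for all genes.

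**Figure D4:**
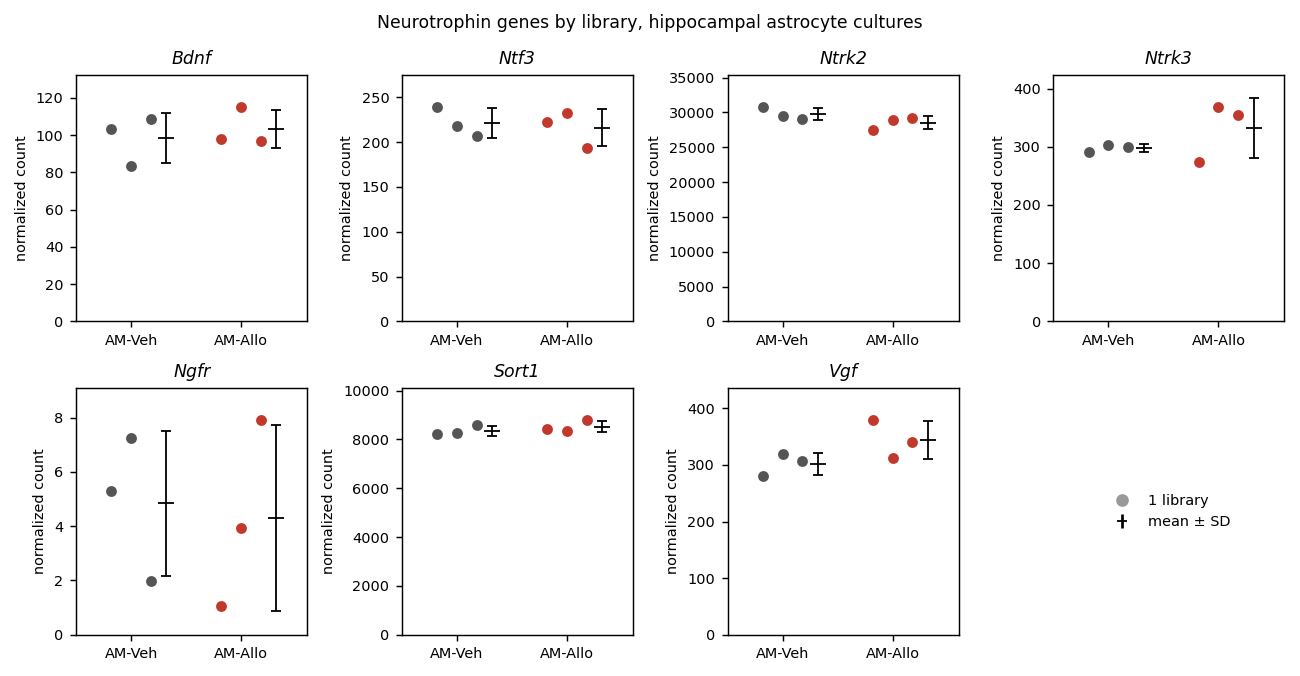
Normalized counts (y axis, linear from 0) of the 7 members in each of the 6 astrocyte libraries, by group; points are libraries and bars give the mean and SD of 3. The groups overlap for all 7 genes, and Ngfr stays at 7.91 or less.

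**Figure D5:**
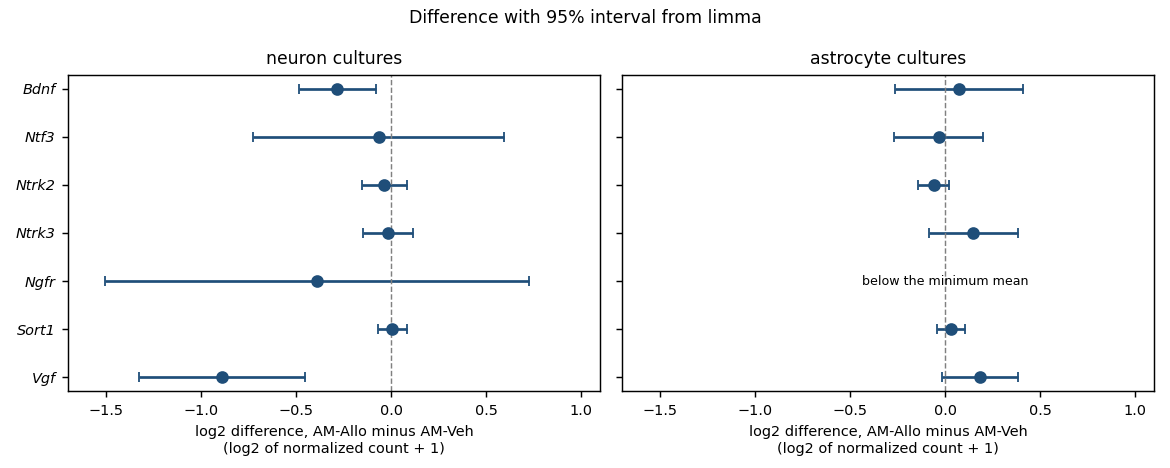
Log2 difference (x axis, AM-Allo minus AM-Veh, log2 of normalized count + 1) with limma's 95% interval for each member, neurons on the left and astrocytes on the right. In neurons the intervals of Bdnf (-0.49 to -0.080) and Vgf (-1.33 to -0.46) lie wholly below 0, and in astrocytes all 6 include 0.

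Shares of the lists called in astrocytes are to be read against 7.01% of all genes in either direction and 3.29% lower. Plat was again the 1 precursor enzyme of 10 (10%) that was lower (11583 to 10970.2, log2 difference -0.078), and Plcg1, the phospholipase that Trk receptors bind, was the 1 Trk adaptor of 18 (5.56%) that was higher (0.096). None of 12 p75 partners, 9 sorting receptor partners or 17 regulators of Bdnf transcription passed. Of 19 activity-regulated genes 2 passed (10.5%, near the share of all genes), both higher, Gadd45b (0.26) and Crem (0.27). Dense core vesicle cargo had values below 0 in 9 of 9 genes, and 4 passed (44.4%, against 3.29% of all genes in that direction), among them Scg2 (15268 to 13821, log2 difference -0.14), Chgb (-0.27) and Penk (-0.14). None of these calls in astrocytes passed after adjustment by limma, whose adjusted p was 0.498 for Scg2, 0.495 for Gadd45b and 0.709 for Plat. Of the cell type markers, 2 of 9 astrocyte markers (22.2%), 1 of 6 neuron markers (16.7%) and 1 of 7 microglia markers (14.3%) were lower at an unadjusted p, and none of the 6 oligodendrocyte lineage or 3 mesenchymal markers passed. Astrocyte markers summed to 240590 to 253760 normalized counts with vehicle and 239668 to 243757 with Allo, neuron markers to 27266 to 28123 and 26499 to 27898, microglia markers to 1127 to 1474 and 1138 to 1275, and oligodendrocyte lineage markers to 3953 to 4139.5 and 3917 to 4359. The part of these markers was not tested.

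Levels of each member in the 2 kinds of culture can only be set side by side, since the tables were normalized separately, and the values that follow are AM-Veh means in CPM, each library's normalized counts being scaled to 1 common total, with no test. Bdnf was at 15.0 ± 1.61 (SD, n = 4) in neuron cultures and 4.13 ± 0.575 (SD, n = 3) in astrocyte cultures, Vgf at 99.9 ± 13.1 and 12.7 ± 0.762, and Ntrk3 at 36.1 ± 2.25 and 12.5 ± 0.224. Ntf3 stood the other way, at 2.34 ± 0.810 in neuron and 9.26 ± 0.721 in astrocyte cultures, as did Sort1, at 169.7 ± 2.17 and 350.2 ± 8.42. Ntrk2 was at 1479.9 ± 94.9 and 1248 ± 41.4, and Ngfr, on few reads, at 0.660 ± 0.294 and 0.203 ± 0.111. For each of these genes the ranges given by the SDs lie apart. Since neuron cultures also hold astrocyte markers at a high level, these are levels of cultures and not of a cell type.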

How the data were processed

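RNA-seq values of 8 neuron and 6 astrocyte libraries were assigned to groups from their titles, which give cell type, treatment and replicate. Per the labels and the study's methods, the authors made stranded poly(A) libraries, quantified them against rat transcripts with Salmon 0.14, summed transcripts to genes and normalized the counts with DESeq2 1.18.1. The authors deposited, for each cell type, this normalized signal (counts per gene divided by normalization factors) and variance-stabilized values on a scale close to log2, and 0 columns were left unused. Whole reads were not recovered, since only 56.8% to 91.4% of low values per library were whole reads within 0.1 read, so a count test was not run. Symbols turned into dates (21 in neurons, 24 in astrocytes) match no list.

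The normalized counts plus 1 were log2-transformed, and genes with a mean of at least 10 were tested within each cell type with limma 3.58.1 (lmFit, eBayes with trend, two-sided) in R 4.3.3, with Benjamini-Hochberg adjustment over all genes tested. Fold changes on this scale understate the change of low genes. For each member the mean log2 values were also compared by an exact permutation test over libraries, two-sided. It shuffled libraries freely and not within the first part of the neuron replicate number, so its neuron p-values ignore the split described below. The script was tested on simulated data. Intervals are limma's and cover the spread between libraries. Replicates differed beyond counting noise in every group, so no libraries were merged.

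Neuron replicate numbers have 2 parts. After group means were removed, AM-Veh and AM-Allo libraries correlated over genes at 0.229 to 0.296 with the same number, at 0.185 to 0.236 with the same first part alone and at -0.319 to -0.15 otherwise. The first part was therefore taken to split the neuron libraries into sets. The ranges for the same number and the same first part overlap, so pairs by whole number are not clearly shown. Counts or adjusted p-values with the first part as a block stand beside the neuron calls they change.

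The members, the gene lists and the naming rule were chosen with earlier results of these data known. All members are named, and from each list at most 3 genes per direction, those with the smallest p under 0.05, with exceptions marked. Alternatives were the pseudocount, the filter, the scaling, the variance-stabilized values, limma's options, the block and leaving out each library. Promoter sequences were matched by symbol to RefSeq (GRCr8), another assembly than the one quantified, for 4 of the 7 members. No protein sequence or transcript length was used, so levels are not compared between genes. Some genes of the pathway are not reported here.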

Additional observations from a re-analysis of the deposited data

Results flagged for a closer look

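Ntrk2 in AM-Allo neuron library 2-2, at 34079.5 normalized counts, stood far above the other 3 AM-Allo libraries, which lay between 30932 and 31442. Such a gap is flagged by chance in about 1 of 20 groups, and 14 groups of 4 libraries were examined. AM-Veh 2-2 was also the highest Ntrk2 library of its group, at 35724.

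The Allo difference of Vgf was smaller in size in neuron libraries of first number 2 than in those of first number 1, by 0.40 on the log2 scale (interaction term in limma, adjusted p = 0.328). All 4 AM-Allo libraries were below the AM-Veh libraries of their first number.

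The Allo difference of Ntrk3 had opposite signs in the 2 first numbers, with an interaction term of -0.26 (limma, adjusted p = 0.352). Both terms had an unadjusted p under 0.05, as 9.53% of all genes did, and neither passed adjustment over all genes. What the first number stands for was not given in the labels, and its part in these differences was not tested.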

How the results depend on the processing

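In neurons, Bdnf and Vgf stayed lower in AM-Allo and under an unadjusted p of 0.05 in all 20 alternatives, with differences of -0.33 to -0.13 for Bdnf (adjusted p 0.103 to 0.999) and -1.07 to -0.67 for Vgf (adjusted p 3.71e-05 to 0.980). The values of -0.13 and -0.67 are in variance-stabilized units, which are compressed at lower counts and are not log2 differences. The number of members past an adjusted p of 0.05, 0 in the report, was 1 (Vgf) with the variance-stabilized values, with either replicate block (by first number or whole number) and with both together, the last chosen after seeing the data. Of all neuron genes, 872 passed at an unadjusted p and 4 after adjustment. These counts were 2204 and 158 with the variance-stabilized values, 1684 and 104 with the replicate block by first number, 1634 and 93 with that by whole number, and 1694 and 105 with the variance-stabilized values and the block by first number, and the adjusted count was 0 in limma without a trend (904 unadjusted). Leaving out 1 library gave 0 to 4, with 0 by limma without AM-Veh 1-1, 1-2 or 2-1 or AM-Allo 1-1 (968, 796, 680 and 832 unadjusted), 1 without AM-Veh 2-2 or AM-Allo 2-1 and 2 without AM-Allo 1-2. The comparison of first numbers, with 2636 genes after adjustment, gave 1722 without a trend. It has no value on the variance-stabilized values, which hold no mean difference between first numbers. A fit to those values without a block does not account for that absence. Its counts of 2204 and 158 may therefore be too high, and its result for Vgf is no check separate from the block.

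In astrocytes, 1 gene passed after adjustment. The count was 0 by limma with a minimum mean of 50 or without a trend (994 unadjusted without a trend), 4 with a robust fit, 17 with a replicate block and 1 to 72 when a library was left out, 72 without AM-Allo 1 and 3 without AM-Veh 2 or AM-Allo 3. Members past an unadjusted p numbered 0 to 1, with Ntrk3 passing without AM-Allo 1 and Vgf without AM-Allo 2. Astrocyte numbers did not pair the libraries (correlation -0.00698 to 0.0241 for the same number), and the block called none of the members. The remaining member values kept their side of the unadjusted threshold in 99 of 99 neuron and 94 of 96 astrocyte alternatives and in 114 of 118 for first numbers. Their sign turned in 12, 4 and 3 of these, always with a library left out and with no p under 0.05 on either side, for example from -0.067 to 0.11 for neuron Ntf3 without AM-Allo 1-1, from -0.39 to 0.052 for neuron Ngfr without AM-Allo 2-2 and from 0.071 to -0.044 for astrocyte Bdnf without AM-Veh 2. The other scalings left the median log2 difference of all genes between -0.013 and -0.0015. Low counts limit Ngfr.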

Other observations

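The authors' variance-stabilized table for neurons held no mean difference between the libraries of first numbers 1 and 2, the largest over 18239 genes being 8e-09. In the normalized counts on the log2 scale the difference had a median size of 0.088 and reached 4.64 over 15314 genes. The variance-stabilized values thus differ from the normalized counts in more than their scale, and the report's values are from the normalized counts.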
